A study of Gossypium herbaceum with 12 samples.

Results

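The hormone genes described here were 28 probe sets of the Affymetrix Cotton Genome array, out of 24132 on it, measured in cotton leaves under drought and irrigation. They were picked by the words in their annotation. The study's 4 lists of probe sets up-regulated in either accession within the same watering condition together hold 1712 different probe sets, and the 28 were those whose annotation on these lists named auxin, ethylene, gibberellin, abscisic acid, jasmonate or a TIFY protein. Cytokinin and brassinosteroid were also searched for and gave no probe set after annotations with the words element binding, AP2, RAP2, ERF, MYB, cytokinin response factor, zinc finger or transporter had been left out. By hormone, 15 were auxin probe sets, 7 ethylene, 3 gibberellin, 2 abscisic acid and 1 jasmonate. Every probe set is named by its cotton probe set number and by the annotation of its Arabidopsis match. For many this is a family wording and not a single gene, and several share the same wording.

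Vagad, the drought-tolerant accession of *Gossypium herbaceum*, and RAHS-14, the sensitive accession, were grown in earthen pots in a greenhouse, and the leaves came from plants about 1 month old. Irrigated pots of both accessions received water every day, and drought was imposed by leaving pots dry except for a watering every other week. There were 4 groups of 3 plants, namely Vagad under drought, Vagad irrigated, RAHS-14 under drought and RAHS-14 irrigated, with 1 plant on each of the 12 arrays.

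Plant hormones are small molecules that set growth and stress responses. Abscisic acid builds up when water is short, closes the stomata and switches on protective genes. Auxin acts by freeing AUXIN RESPONSE FACTOR (ARF) transcription factors from their repressors, and efflux carriers move it from cell to cell. Gibberellins promote elongation, and their last steps of synthesis are made by oxidases of the same dioxygenase family. Ethylene is sensed by receptors that hold the pathway off until the gas binds, after which the transcription factor ETHYLENE-INSENSITIVE3 (EIN3) accumulates. Jasmonate, a wound and stress hormone, releases its target genes from TIFY (JAZ) repressors.

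Signals are given on a log2 scale after quantile normalization, where 1 unit is a fold of 2. Signals under a floor of 17.3, which is 4.11 on this scale, were raised to it. A pair of arrays, those of Vagad drought plants 1 and 2, differed from the rest. As deposited, the median signal was 323 on the array of plant 1 and 346 on that of plant 2, and it lay between 61.4 and 74.8 on the remaining 10. Their median Spearman correlations with those 10 were 0.594 and 0.438, against 0.944 to 0.957 among the 10 (over probe sets, which do not replicate each other). They are therefore shown apart, and Vagad drought differences are given both over all 3 plants and over plant 3 alone, whose spread is taken from the remaining groups. Of the 6 probe sets annotated to chlorophyll, photosystem or rubisco functions, 4 were measured above the floor on all 12 arrays. The other pair, annotated as chlorophyll binding, was at the floor on 9 and 10 arrays. The summed signal of the 6 was 2085 and 4086 on the set-apart arrays and between 651 and 953.8 on the other 10. The 6 did not move together, as 0 were higher and 0 lower on both set-apart arrays than on all the other 10. The photosystem reaction center and rubisco activator probe sets were at 10.20 and 9.04 in plant 1, above all other arrays. In plant 2 they were at 5.06 and 5.51, below all other arrays. There, a chlorophyll binding probe set was at 10.95 and the chlorophyllide a oxygenases at 10.76 and 8.11, above all other arrays. Of 10 probe sets annotated to seed storage or lipid transfer, phloem, fasciclin-like or floral organ proteins, 4 were higher on both set-apart arrays than on all the other 10 and 2 were lower. One of them, annotated AFO (ABNORMAL FLORAL ORGANS), was at 8.25 and 9.51 there, against 4.11 to 5.40. Over the other 10 arrays, 4 of these 10 probe sets were lower in all 4 droughted plants than in all 6 irrigated plants and 1 was higher. The summed signal of the 10 was 8792 in Vagad plant 3 and 9639 to 9900 in droughted RAHS-14. It was 8239 to 10100 in irrigated Vagad and 8925 to 9750 in irrigated RAHS-14. The part of these in the hormone results was not tested. Fewer leaf cells of a type and less RNA per cell cannot be told apart in whole leaves.

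The rule drew on differences between the accessions, so those values are a description. Of the 4 members listed for irrigated Vagad, 2 had a higher mean signal in Vagad plants than in RAHS-14 plants under irrigation and 2 a lower mean, with differences of -1.90 to 0.20. Of the 9 listed for irrigated RAHS-14, 6 had a higher mean in irrigated Vagad and 3 a lower mean (-2.54 to 1.03). Under drought, with Vagad plant 3 alone, 4 of the 8 members listed for Vagad were higher in Vagad, 3 were lower and 1 was equal (-0.87 to 1.39). Of the 11 listed for RAHS-14, 5 were higher in Vagad, 5 were lower and 1 was equal (-0.85 to 0.84). A difference of 2-fold or more, in either direction, was found for 1 of the 4, 3 of the 9, 2 of the 8 and 0 of the 11. The lists were made from RMA values and the signals here are MAS5 values, and the part of this in the directions was not tested. In all, 4 members stood on 2 lists. The differences of single members between accessions follow further on.

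**Figure D1:**
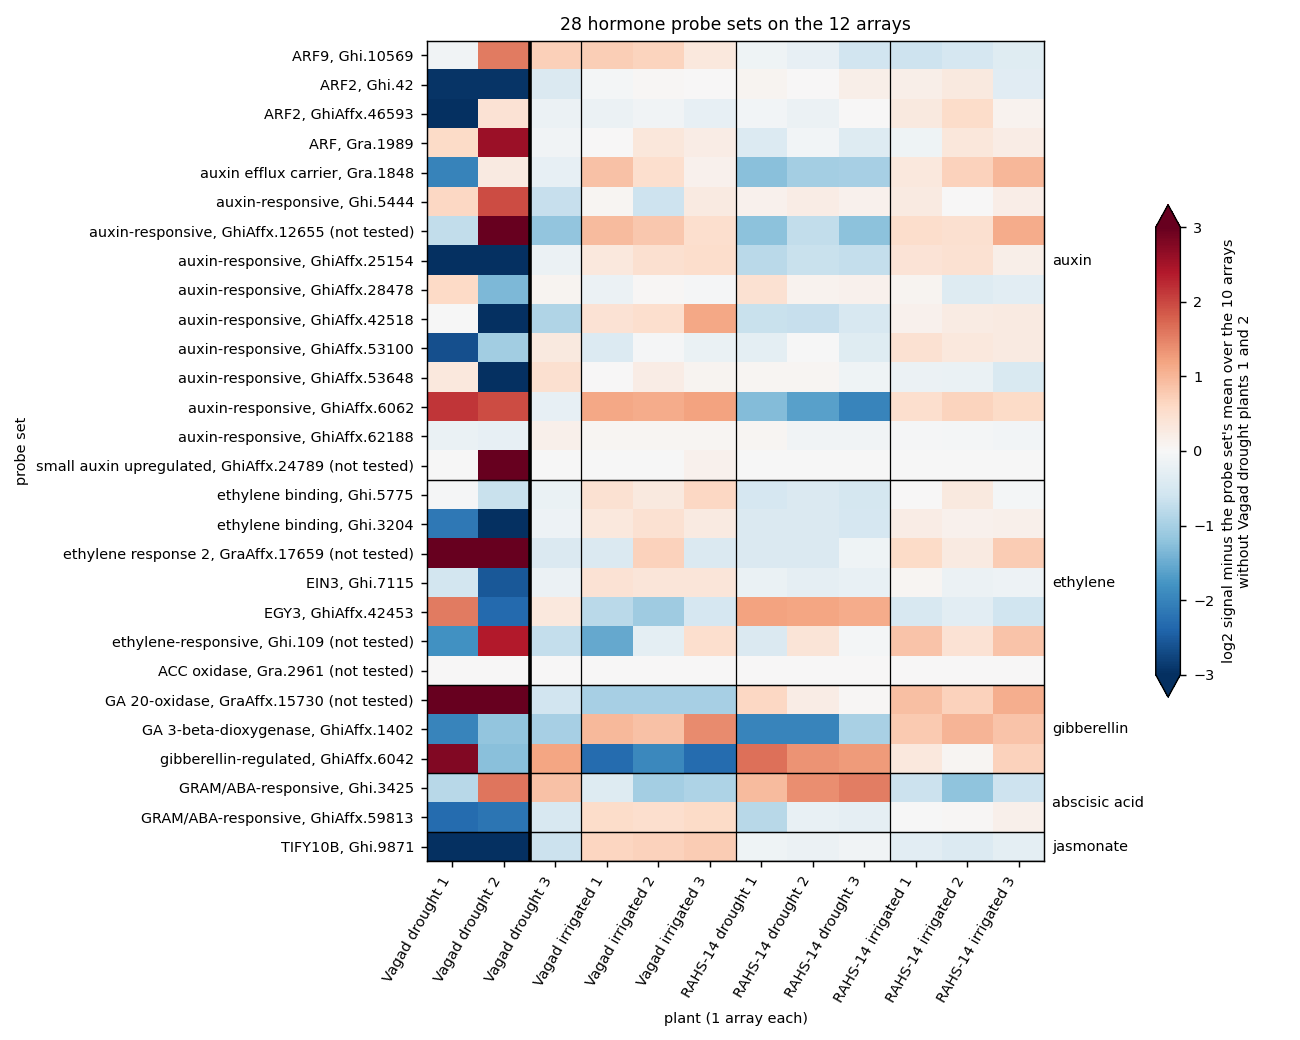
Log2 signal of the 28 hormone probe sets (rows, by hormone) on the 12 arrays (columns, 1 plant each), as the difference from the probe set's mean over the 10 arrays without Vagad drought plants 1 and 2. Those plants, left of the heavy line, hold most of the strongest colours, and their values go both up and down within each of the larger hormone groups.

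Which hormone genes changed with drought was asked within each accession. These contrasts were not used by the rule, but they share 1 side of their arrays with it. The p-values of the members are therefore not independent of how the members were chosen. Members counted as called had limma's adjusted p below 0.05 together with a difference of 2-fold or more, among 12854 probe sets tested, and 22 of the 28 members were tested. In RAHS-14, 3 of the 22 rose under drought (13.6%) and 4 fell (18.2%), while 2.52% of all probe sets tested rose and 3.39% fell. The median difference of the 22 members was -0.27, against 0.00 over all probe sets tested. These shares are a description, because the members came from lists of probe sets that differed between the accessions on some of the same arrays. The share among all listed probe sets was not computed, here or for the shares below. Further, 3 of the 22 passed the filter only on arrays of droughted or only on arrays of irrigated plants (Ghi.3425, GhiAffx.1402 and GhiAffx.59813). Without them, 2 of 19 rose and 3 fell. With no filter, 3 of all 28 members rose and 5 fell in RAHS-14, against 1.71% of 23977 probe sets higher and 2.18% lower. In the filtered fit with no fold threshold, 4 of the 22 members were higher and 10 lower at limma's adjusted p under 0.05. Of all 12854 probe sets tested, 5151 differed at that level. GhiAffx.59813, among the 10, had an adjusted p of 0.161 in the fit with no filter.

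In Vagad over all 3 drought plants, limma called 0 of the 22 members and 0 of all probe sets, that is 0% higher and 0% lower. At an unadjusted p under 0.05, 6 members (1 higher and 5 lower) and 1360 of all probe sets differed. The median difference was -0.95 over the members and -0.62 over all probe sets. With drought plant 3 alone, 3 of the 22 members rose and 5 fell, against 3.25% of all probe sets higher and 4.38% lower, and the median of the members was -0.47 against 0.01 over all. Without the members that passed the filter on 1 side, 2 of 19 rose and 3 fell, and with no filter 3 of all 28 rose and 6 fell, against 2.48% of 23977 probe sets higher and 2.79% lower. Without plant 3, that is over plants 1 and 2, 0 members rose and 6 fell, among 3427 of all probe sets called. The Vagad calls below therefore rest on 1 plant, while the RAHS-14 calls rest on 3.

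**Figure D2:**
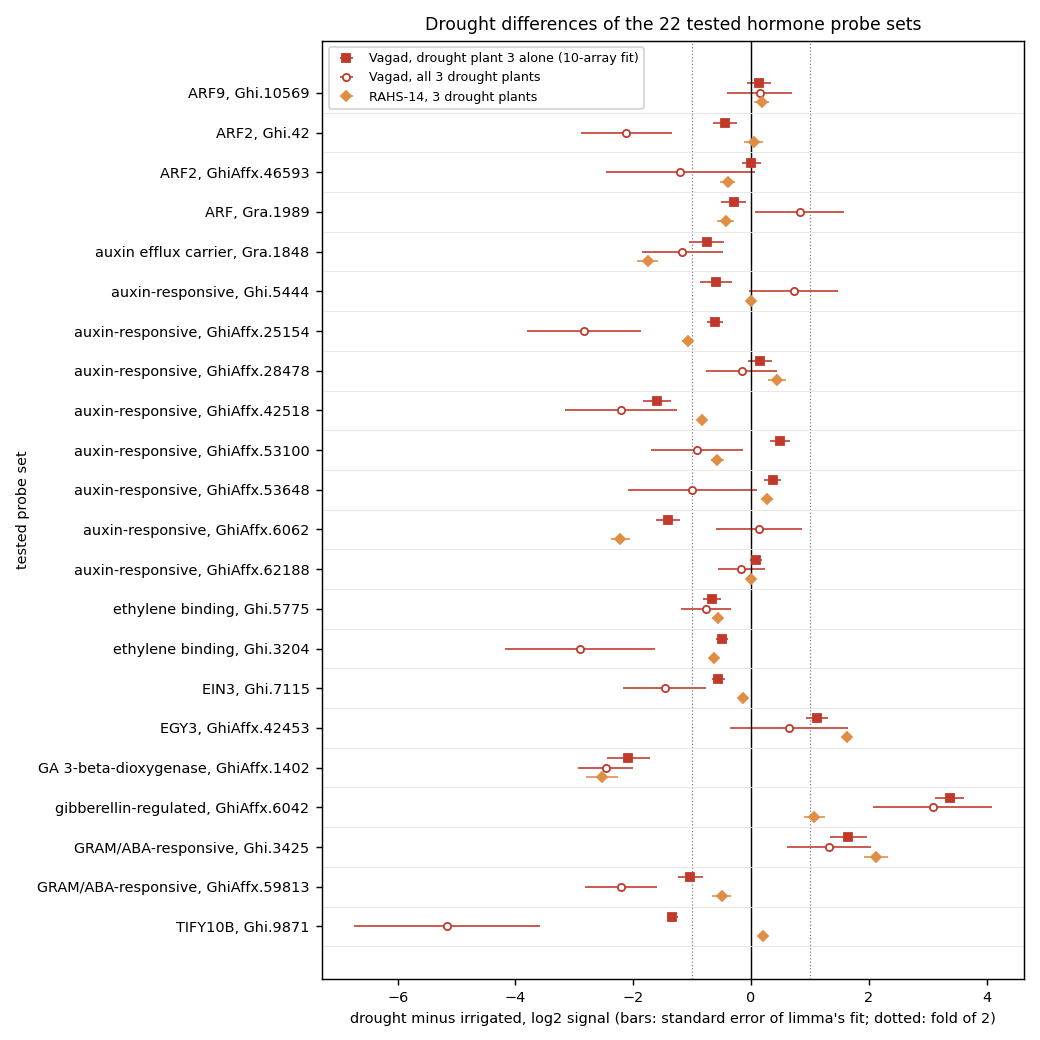
Drought minus irrigated difference in log2 signal (horizontal axis) for the 22 tested members (rows), in Vagad with drought plant 3 alone, in Vagad with all 3 drought plants, and in RAHS-14, with standard errors of limma's fits on the filtered probe sets. The standard errors of Vagad over all 3 plants are several times wider than those of RAHS-14, and the gibberellin 3-beta-dioxygenase lies beyond a fold of 2 on the low side in all of them.

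Both abscisic acid members were annotated as GRAM domain proteins related to ABA-responsive proteins, where the GRAM domain is a lipid-binding fold. The first, Ghi.3425.2.S1_a_at, had log2 signals of 4.80, 7.23 and 6.51 in Vagad drought plants 1, 2 and 3, against 5.25, 4.62 and 4.71 in irrigated Vagad. In RAHS-14 it had 6.59, 7.03 and 7.17 under drought, against 4.99, 4.44 and 5.01 irrigated. The 3 RAHS-14 drought plants lay above all 3 irrigated plants, and in Vagad plants 2 and 3 did, whereas plant 1 lay within the irrigated range. In RAHS-14 it rose 4.35-fold under drought, a difference of 2.12 (standard error 0.24, adjusted p = 0.00658). With Vagad plant 3 alone the difference was 1.65 (standard error 0.35, adjusted p = 0.0222), and with all 3 Vagad plants it was 1.32 (standard error 0.69, adjusted p = 0.49). It passed the filter on low signals on 3 arrays only, all of them of droughted plants, so these tests come from the fits of all 23977 probe sets with no filter.

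The second GRAM protein, GhiAffx.59813.1.S1_at, had 4.11, 4.22 and 5.93 in the Vagad drought plants, against 6.97, 6.92 and 6.98 in irrigated Vagad. Droughted RAHS-14 plants had 5.59, 6.20 and 6.15, against 6.39, 6.46 and 6.58 irrigated. It was thus lower in all droughted plants of both accessions, opposite in direction to the first. It exceeded the array median on the 3 irrigated Vagad arrays alone, so its tests too come from the fits with no filter. In Vagad it fell by 1.03 with plant 3 alone (standard error 0.22, adjusted p = 0.0226), with all 3 plants the difference was -2.20 (standard error 0.57, adjusted p = 0.49), and in RAHS-14 it was -0.50 (standard error 0.19, adjusted p = 0.161).

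The 2 gibberellin members that were tested changed in opposite directions under drought. GhiAffx.1402.1.S1_at, a gibberellin 3-beta-dioxygenase, belongs to the enzymes that make active gibberellin in the last step of synthesis. It had 4.11, 4.90 and 5.08 in the Vagad drought plants, against 7.05, 6.96 and 7.50 in irrigated Vagad. In RAHS-14 it had 4.11, 4.11 and 5.11 under drought, against 6.88, 7.10 and 6.95 irrigated. Every droughted plant lay below every irrigated plant in both accessions, and 3 of the 6 droughted plants were at the floor, so the sizes depend on the floor. It passed the filter on the 6 irrigated arrays alone, and its tests come from the fits with no filter. In RAHS-14 it was 5.78-fold lower under drought (difference -2.53, standard error 0.32, adjusted p = 0.00874). The difference was -2.09 with Vagad plant 3 alone (standard error 0.41, adjusted p = 0.017) and -2.47 with all 3 plants (standard error 0.39, adjusted p = 0.49).

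GhiAffx.6042.1.S1_s_at, a gibberellin-regulated family protein, belongs to the small cysteine-rich proteins whose transcripts respond to gibberellin. Its log2 signals were 9.19, 5.16 and 7.60 in the Vagad drought plants, against 4.11, 4.47 and 4.11 in irrigated Vagad. In RAHS-14 they were 8.07, 7.77 and 7.69 under drought, against 6.72, 6.47 and 7.11 irrigated. The droughted plants lay above the irrigated plants in both accessions. Irrigated Vagad was at the floor on 2 of 3 arrays, so the size in Vagad depends on the floor. The gene was listed as higher in irrigated RAHS-14 than in irrigated Vagad. The irrigated arrays that chose it are thus also the reference of its drought differences. With Vagad plant 3 alone the gene was 10.4-fold higher under drought (difference 3.37), and with all 3 plants the difference was 3.09 (standard error 1.01, adjusted p = 0.406). In RAHS-14 it rose by 1.08 (standard error 0.18, adjusted p = 0.00357), close to the fold of 2. This probe set exceeded the array median on 6 arrays, most of them of droughted plants. In the fit with no filter, the RAHS-14 difference had a standard error of 0.21 and limma's adjusted p was 0.0288. For the difference over all 3 Vagad plants they were 1.04 and 0.49. Without RAHS-14 drought plant 1 the RAHS-14 difference was 0.96 and without irrigated plant 2 it was 0.93, in both cases under that fold.

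GraAffx.15730.1.S1_at, a gibberellin 20-oxidase, which makes the precursors of active gibberellin, had 9.42, 8.87 and 4.54 in the Vagad drought plants, against 4.11, 4.11 and 4.12 in irrigated Vagad. Droughted RAHS-14 plants had 5.73, 5.35 and 5.16, against 6.01, 5.80 and 6.21 irrigated. It exceeded the array median only on the arrays of Vagad drought plants 1 and 2 and was not tested. On the other 10 arrays it was highest in irrigated RAHS-14.

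**Figure D3:**
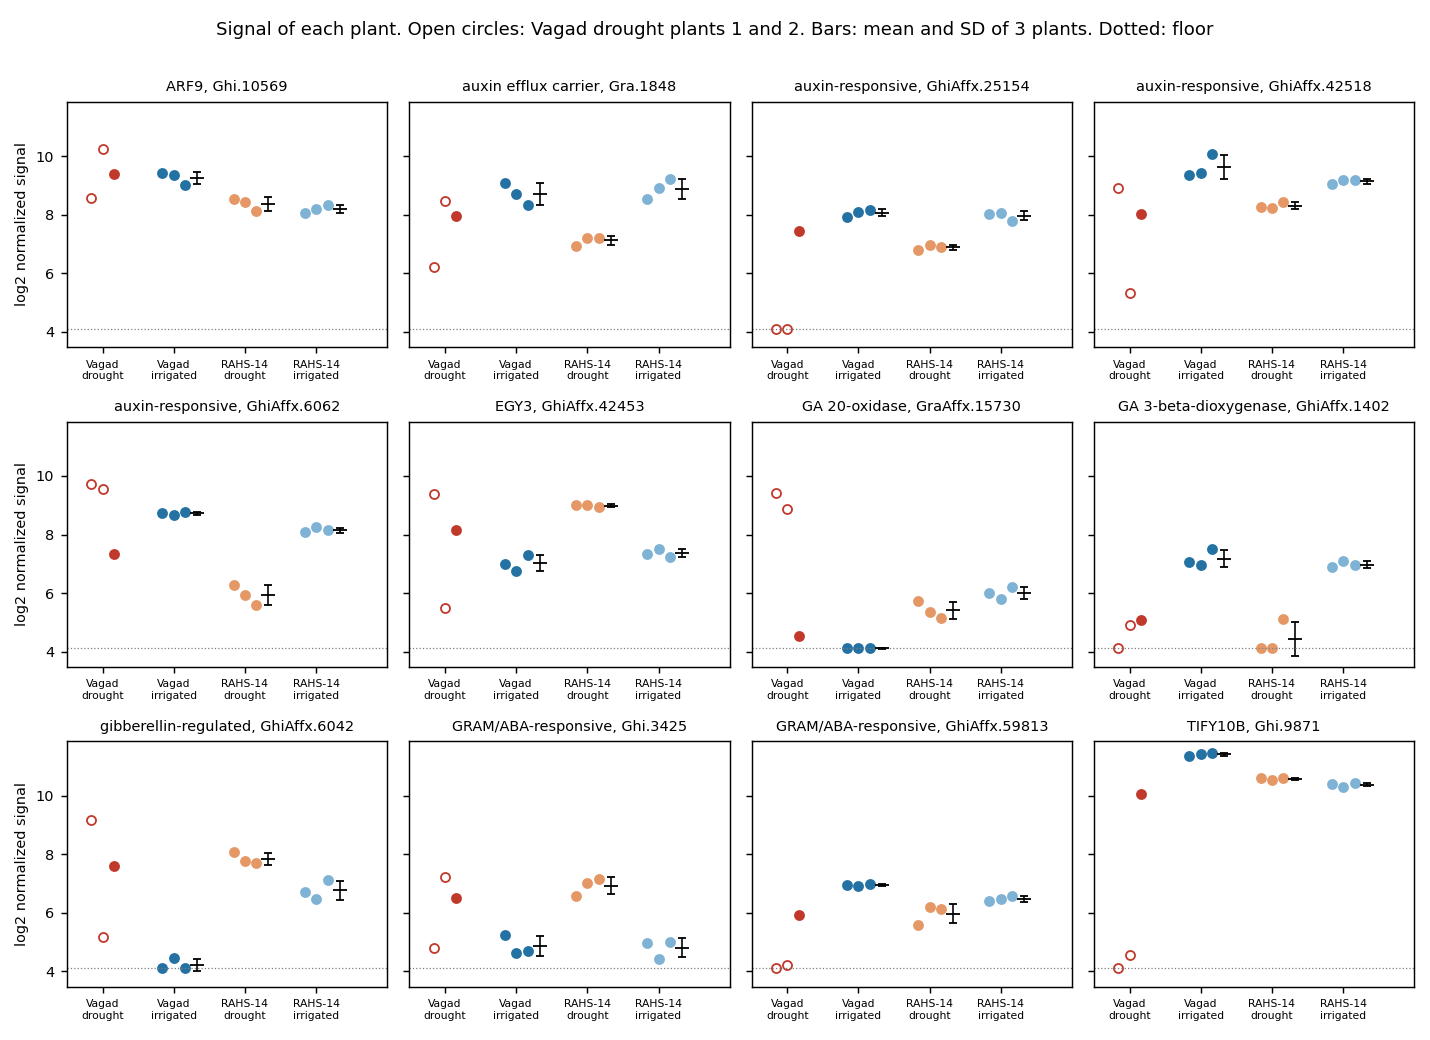
Log2 normalized signal of every plant in the 4 groups, for the 12 members called in a comparison of the filtered probe sets or opposite in direction between the accessions, with open circles for Vagad drought plants 1 and 2, bars for the mean and SD of 3 plants in the other groups, and a dotted line at the floor of 4.11. The gibberellin 3-beta-dioxygenase separates droughted from irrigated plants in both accessions, while TIFY10B is at 4.11 and 4.56 in Vagad drought plants 1 and 2 and at 10.08 in plant 3.

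Of the 7 ethylene members 4 were tested. EGY3, GhiAffx.42453.1.S1_at, entered by its name alone, ETHYLENE-DEPENDENT GRAVITROPISM-DEFICIENT AND YELLOW-GREEN-LIKE 3; the protein is a chloroplast relative of membrane metalloproteases, not an ethylene receptor or signalling step. It had 9.38, 5.50 and 8.14 in the Vagad drought plants, against 7.01, 6.75 and 7.31 in irrigated Vagad. In RAHS-14 it had 9.02, 9.00 and 8.93 under drought, against 7.35, 7.50 and 7.23 irrigated. Vagad plant 2 lay below the irrigated plants and plants 1 and 3 above them. In RAHS-14 the gene rose 3.08-fold under drought (difference 1.63, standard error 0.08, adjusted p = 2.29e-05), and the difference was 1.12 with Vagad plant 3 alone (standard error 0.19, adjusted p = 0.00286) and 0.65 with all 3 plants (standard error 1.00, adjusted p = 0.716). Without Vagad drought plant 1, the difference over plants 2 and 3 was -0.20.

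Ghi.3204.1.S1_at and Ghi.5775.1.S1_s_at were annotated as ethylene-binding proteins, the receptors of the hormone. Each stands on 2 of the study's lists under different names: Ghi.3204 as ETHYLENE INSENSITIVE 4 and Ghi.5775 as ETR2, and both also as an ethylene-binding glycogen synthase kinase. Ghi.3204 had 7.34, 4.11 and 9.34 in the Vagad drought plants, against 9.80, 9.94 and 9.76 in irrigated Vagad, and 9.06, 9.05 and 8.99 in droughted RAHS-14, against 9.71, 9.62 and 9.64 in irrigated RAHS-14. Ghi.5775 had 9.49, 8.86 and 9.34 in the Vagad drought plants, against 10.01, 9.84 and 10.16 in irrigated Vagad, and 9.04, 9.11 and 9.01 in droughted RAHS-14, against 9.56, 9.82 and 9.49 in irrigated RAHS-14. Both were lower in every droughted plant than in every irrigated plant of the same accession. The differences stayed under a fold of 2 in RAHS-14, at -0.62 for Ghi.3204 (standard error 0.06, adjusted p = 0.000366) and -0.57 for Ghi.5775 (standard error 0.10, adjusted p = 0.00434), and in Vagad plant 3 alone, at -0.49 and -0.66. With all 3 Vagad plants they were -2.90 and -0.77, with adjusted p = 0.406 and 0.415.

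EIN3, Ghi.7115.1.S1_s_at, the transcription factor that carries the ethylene signal, had 9.97, 7.97 and 10.35 in the Vagad drought plants, against 10.95, 10.87 and 10.87 in irrigated Vagad. Its signals were 10.32, 10.24 and 10.30 in droughted RAHS-14, against 10.56, 10.34 and 10.36 irrigated. Its drought difference was -0.55 with Vagad plant 3 alone (standard error 0.11, adjusted p = 0.00594) and -0.14 in RAHS-14 (standard error 0.08, adjusted p = 0.217), both under a fold of 2. With all 3 Vagad plants it was -1.47 (standard error 0.71, adjusted p = 0.406). The remaining 3 ethylene members were not tested. The ACC oxidase Gra.2961.2.A1_x_at, the enzyme that forms ethylene, was at the floor on all 12 arrays. GraAffx.17659.1.A1_s_at, annotated like ETR2, was at 8.03 and 8.57 in Vagad drought plants 1 and 2 and between 4.11 and 5.31 in the other 10 plants. Ghi.109.1.S1_at, an ethylene-responsive family protein, ranged between 4.11 and 8.30 and exceeded the array median on 1 array.

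Auxin was the largest group, with 15 members of which 13 were tested. In RAHS-14, 0 rose and 3 fell under drought, with a median difference of -0.40, against 2.52% of all probe sets higher, 3.39% lower and a median of 0.00. In Vagad with plant 3 alone, 0 rose and 2 fell, with a median of -0.29, against 3.25% higher, 4.38% lower and a median of 0.01. With all 3 Vagad plants 0 were called, and the median was -0.91 against -0.62 over all probe sets. The auxin-responsive protein GhiAffx.6062.1.S1_at had 9.72, 9.54 and 7.33 in the Vagad drought plants, against 8.74, 8.68 and 8.78 in irrigated Vagad. In RAHS-14 it had 6.27, 5.94 and 5.59 under drought, against 8.07, 8.24 and 8.14 irrigated. All droughted RAHS-14 plants and Vagad plant 3 lay below the irrigated plants, and Vagad plants 1 and 2 lay above them. In RAHS-14 it was 4.66-fold lower under drought (difference -2.22, standard error 0.16, adjusted p = 0.000105). It was listed as higher in droughted Vagad than in droughted RAHS-14, so the droughted RAHS-14 arrays that chose it also serve in this test. With Vagad plant 3 alone the difference was -1.41 (standard error 0.21, adjusted p = 0.00145), and with all 3 Vagad plants it was 0.13 (standard error 0.73, adjusted p = 0.925).

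Gra.1848.1.A1_s_at, an auxin efflux carrier family protein of the kind that exports auxin from cells, had 6.22, 8.47 and 7.96 in the Vagad drought plants, against 9.10, 8.70 and 8.35 in irrigated Vagad. Its signals were 6.95, 7.20 and 7.22 in droughted RAHS-14, against 8.53, 8.90 and 9.20 irrigated. The RAHS-14 groups did not overlap, and the Vagad groups did, by plant 2. It fell by 1.76 in RAHS-14 (standard error 0.17, adjusted p = 0.000379), and the difference was -0.75 with Vagad plant 3 alone (standard error 0.30, adjusted p = 0.0885) and -1.17 with all 3 Vagad plants (standard error 0.69, adjusted p = 0.425).

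GhiAffx.25154.1.A1_at and GhiAffx.42518.1.S1_at carried the same annotation as GhiAffx.6062, auxin-responsive protein-related, a wording that does not give a function. GhiAffx.25154 had 4.11, 4.11 and 7.46 in the Vagad drought plants, against 7.93, 8.11 and 8.16 in irrigated Vagad, and 6.80, 6.96 and 6.90 in droughted RAHS-14, against 8.03, 8.07 and 7.80 in irrigated RAHS-14. It fell by 1.07 in RAHS-14 (standard error 0.09, adjusted p = 0.000201). Like GhiAffx.6062, it was listed as higher in droughted Vagad, so the droughted RAHS-14 arrays also served in choosing it. With Vagad plant 3 alone the difference was -0.61, under a fold of 2 (standard error 0.14, adjusted p = 0.0111), and with all 3 plants, of which 1 and 2 were at the floor, it was -2.84 (adjusted p = 0.406). GhiAffx.42518 had 8.91, 5.33 and 8.03 in the Vagad drought plants, against 9.37, 9.44 and 10.08 in irrigated Vagad, and 8.26, 8.24 and 8.44 in droughted RAHS-14, against 9.06, 9.18 and 9.19 in irrigated RAHS-14. It fell by 1.60 with Vagad plant 3 alone (standard error 0.24, adjusted p = 0.00158), and with all 3 Vagad plants the difference was -2.21 (standard error 0.96, adjusted p = 0.406), while the RAHS-14 difference was -0.83, under a fold of 2 (standard error 0.08, adjusted p = 0.000342). All droughted plants lay below the irrigated plants of their accession for both of these probe sets.

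The 4 ARF probe sets, which stand for the transcription factors that bind auxin-response promoters, were not called in either drought comparison. Their RAHS-14 differences were 0.18 for ARF9 (Ghi.10569.1.S1_s_at), 0.04 and -0.40 for the ARF2 pair (Ghi.42.2.S1_s_at and GhiAffx.46593.1.S1_x_at) and -0.43 for Gra.1989.1.S1_at, and with Vagad plant 3 alone they were 0.13, -0.45, 0.01 and -0.29. In the same order they were 0.14, -2.12, -1.20 and 0.82 with all 3 Vagad plants, with adjusted p of 0.406 or more. The ARF2 pair showed how far the set-apart arrays could diverge: Ghi.42 was at 4.11 in both Vagad drought plants 1 and 2, while GhiAffx.46593 was at 4.98 in plant 1 and 9.81 in plant 2. The other 5 tested auxin-responsive probe sets, annotated as auxin-responsive proteins with no further detail, differed by -0.57 (GhiAffx.53100.1.S1_at) to 0.44 (GhiAffx.28478.1.S1_at) in RAHS-14 and by -0.59 (Ghi.5444.1.S1_at) to 0.50 (GhiAffx.53100.1.S1_at) with Vagad plant 3 alone. With all 3 Vagad plants they lay between -0.99 (GhiAffx.53648.2.S1_at) and 0.73 (Ghi.5444.1.S1_at). GhiAffx.53100 thus had opposite signs with Vagad plant 3 alone and in RAHS-14. In RAHS-14 it exceeded the array median on irrigated arrays alone. Its adjusted p there was 0.00656 in limma's filtered fit and 0.0337 with no filter. GhiAffx.62188.1.S1_at was the steadiest of the 13, between 7.66 and 8.06 in all 12 plants.

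The 2 auxin members that did not pass the filter were low on nearly all arrays. GhiAffx.24789.1.S1_at, annotated SMALL AUXIN UPREGULATED after a family of early auxin-induced transcripts, was at the floor on 10 arrays and at 8.23 in Vagad drought plant 2. GhiAffx.12655.1.S1_at had 4.60, 8.36 and 4.17 in the Vagad drought plants, against 6.29, 6.15 and 5.84 in irrigated Vagad, and 4.11, 4.60 and 4.11 in droughted RAHS-14, against 5.88, 5.82 and 6.46 in irrigated RAHS-14. Apart from Vagad plant 2, its droughted plants were all below its irrigated plants, and it exceeded the array median on 1 array. With no filter it fell by 1.78 in RAHS-14 (standard error 0.24, adjusted p = 0.0114) and fell by 1.92 with Vagad plant 3 alone (standard error 0.32, adjusted p = 0.00898), and with all 3 Vagad plants the difference was -0.38 (standard error 1.18, adjusted p = 0.867).

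The jasmonate member was TIFY10B, Ghi.9871.1.S1_at, a JAZ repressor of jasmonate responses that is itself induced by jasmonate in Arabidopsis. It had 4.11, 4.56 and 10.08 in the Vagad drought plants, against 11.35, 11.41 and 11.48 in irrigated Vagad. In RAHS-14 it had 10.59, 10.54 and 10.61 under drought, against 10.41, 10.31 and 10.42 irrigated. All 3 droughted Vagad plants lay below the irrigated Vagad plants, whereas the 3 droughted RAHS-14 plants lay above the irrigated RAHS-14 plants. In Vagad it fell by 1.34 with plant 3 alone (standard error 0.09, adjusted p = 2.36e-05), with all 3 plants the difference was -5.17 (standard error 1.57, adjusted p = 0.406), and in RAHS-14 it was 0.20 (standard error 0.06, adjusted p = 0.0425), under a fold of 2. The difference between the accessions in this response was not tested.

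**Figure D4:**
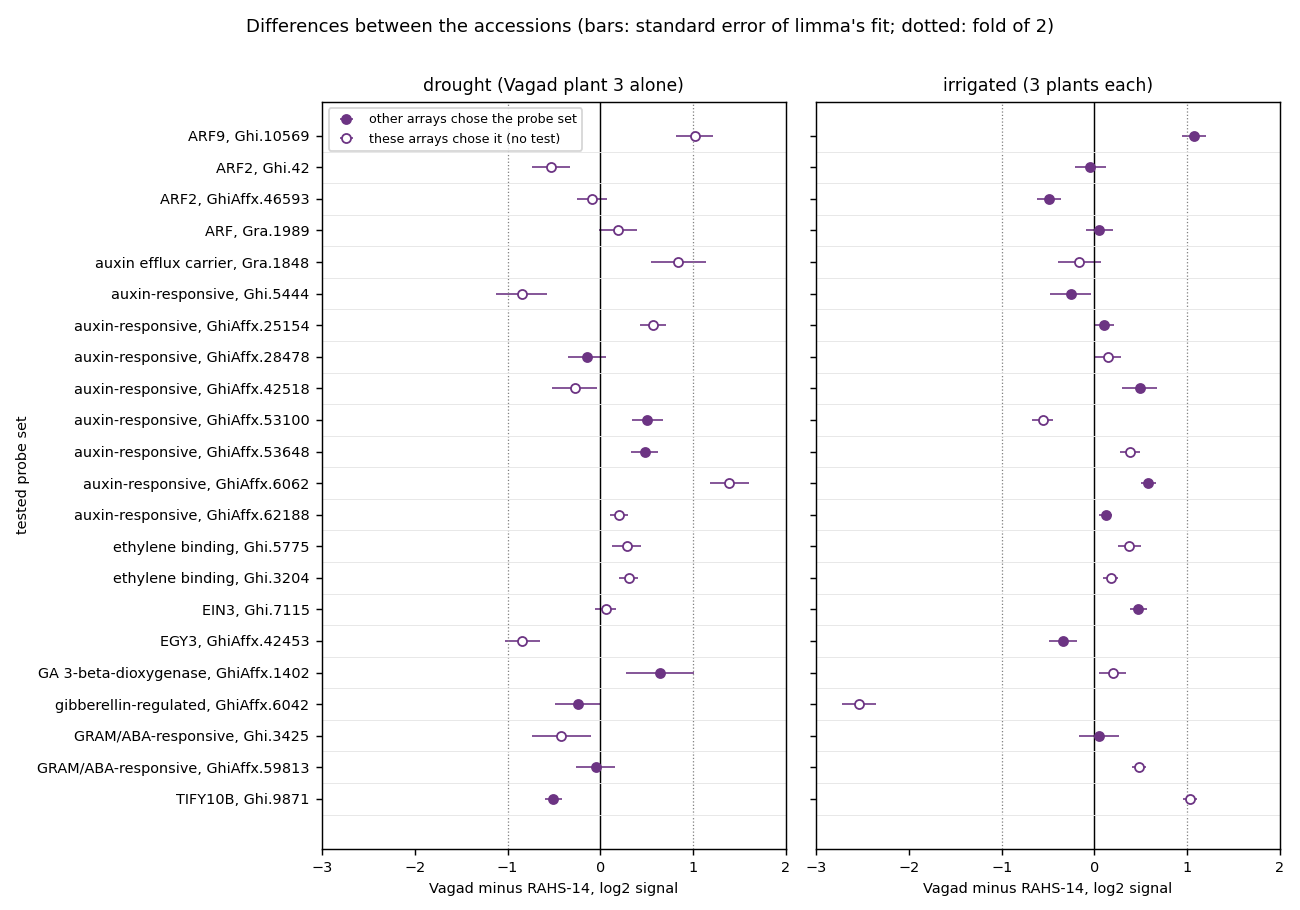
Vagad minus RAHS-14 difference in log2 signal (horizontal axes) of the 22 tested members (rows) under drought, with Vagad plant 3 alone, and irrigated, with 3 plants each, with standard errors of limma's fits. Filled points are members chosen on the other condition and open points those chosen on the arrays shown; ARF9 lies just past a fold of 2 on the Vagad side in both conditions.

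Differences between the accessions can be tested only for members that were listed on the other watering condition. Of the 15 members listed only under drought, 12 were tested between irrigated plants. ARF9 was higher in irrigated Vagad, and 0 members were lower, while 1.32% of all probe sets tested were higher and 1.17% lower. ARF9 had 9.42, 9.34 and 9.01 in irrigated Vagad, against 8.05, 8.18 and 8.32 in irrigated RAHS-14, a difference of 1.07 (standard error 0.13, adjusted p = 0.00274) that was 0.99, under a fold of 2, without irrigated Vagad plant 1. The median over the 12 members was 0.08. With no fold threshold, 1925 of the 12854 probe sets differed at limma's adjusted p under 0.05. GhiAffx.6062 and EIN3 were higher in irrigated Vagad by 0.58 and 0.47, and GhiAffx.46593 was lower by 0.49. Each of them had an adjusted p under 0.05 with a fold under 2. The other 8 were between -0.34 and 0.49.

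Of the 9 members listed only under irrigation, 7 were tested between droughted plants. Over all 3 Vagad plants limma called 0 of them and 0 of all probe sets (0% in either direction). At an unadjusted p under 0.05, 1 member and 1352 of all probe sets differed, and the median of all probe sets lay at -0.64. With Vagad plant 3 alone the 7 differed by -0.50 to 0.64, all under a fold of 2. Their median was -0.05, against 0.02 over all probe sets. Without plant 3, 0 members were higher and 2 lower in Vagad, among 3674 of all probe sets called. TIFY10B differed by -0.50 with plant 3 alone (standard error 0.09, adjusted p = 0.00563) and by -4.33 with all 3 plants (standard error 1.59, adjusted p = 0.386). The gibberellin 3-beta-dioxygenase differed by 0.64 with plant 3 alone (standard error 0.37, adjusted p = 0.22) and by 0.26 with all 3 plants (adjusted p = 0.776). GhiAffx.53648.2.S1_at, an auxin-responsive family protein, differed by 0.48 with plant 3 alone (standard error 0.15, adjusted p = 0.039) and by -0.89 with all 3 plants (adjusted p = 0.643).

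The differences of 2-fold or more on the arrays that chose the members are given without a test. Between irrigated plants, the gibberellin-regulated protein GhiAffx.6042 differed by -2.54 (mean 4.23 in Vagad and 6.77 in RAHS-14) and TIFY10B by 1.03 (mean 11.41 in Vagad and 10.38 in RAHS-14). The gibberellin 20-oxidase had irrigated means of 4.11 in Vagad and 6.01 in RAHS-14, and the ethylene-responsive Ghi.109 of 5.48 in Vagad and 6.64 in RAHS-14. Under drought, with Vagad plant 3 alone, GhiAffx.6062 was at 7.33 in Vagad against a mean of 5.93 in RAHS-14 and ARF9 at 9.39 against 8.37.

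A further 35 probe sets of the study's lists were taken as other hormone genes, and 30 of them were tested. They include ethylene-responsive element binding factors, ACC oxidases, lipoxygenases, gibberellin receptors and protein phosphatases 2C. The annotation does not say whether these phosphatases act in abscisic acid signalling. In RAHS-14, 0 of the 30 rose and 3 fell under drought, with a median of -0.23, beside 2.52% higher and 3.39% lower among all probe sets. The 3 were an ethylene-responsive element binding factor (Ghi.10747.1.S1_at, -1.21), the auxin-induced repressor INDOLE-3-ACETIC ACID INDUCIBLE 14 (Ghi.6543.1.S1_s_at, -1.20) and a gibberellin receptor annotated GA INSENSITIVE DWARF1B (Gra.1544.1.A1_s_at, -1.02). Another probe set with the same annotation as Ghi.6543, GhiAffx.6395.1.S1_s_at, differed by -0.25 in RAHS-14 and was not called. In Vagad with plant 3 alone, 0 rose and 8 fell, with a median of -0.08, beside 3.25% higher and 4.38% lower among all. Over all 3 Vagad plants 0 were called, with a median of -1.21 against -0.62 over all probe sets. The largest of the 8 was an ACC oxidase, Ghi.8025.1.S1_s_at, with 6.51, 4.54 and 7.07 in the Vagad drought plants, against 10.11, 10.25 and 9.74 in irrigated Vagad, a difference of -2.97 with plant 3 alone (standard error 0.19, adjusted p = 1.72e-05) and -4.00 with all 3 plants (standard error 0.73, adjusted p = 0.406). It had 7.25, 7.26 and 7.56 in droughted RAHS-14, against 8.35, 8.35 and 8.28 in irrigated RAHS-14, a difference of -0.97 under a fold of 2. The gibberellin receptor and Ghi.10747 followed at -1.54 and -1.48 with plant 3 alone and were at -3.32 and -3.77 with all 3 plants (adjusted p = 0.406 for both). Between droughted plants, 14 of the 30 could be tested, and with Vagad plant 3 alone a GAST1 homologue (Ghi.690.1.A1_s_at), from a gibberellin-induced family, was higher in Vagad by 1.27 and the auxin repressor IAA16 (GhiAffx.39930.1.S1_at) was lower by 1.15, beside 2.33% of all probe sets higher and 3.84% lower. With all 3 Vagad plants 0 of the 14 were called, and these differences were 0.29 (adjusted p = 0.767) and -3.10 (adjusted p = 0.386). Between irrigated plants 0 of the 10 that could be tested were called.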

How the data were processed

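Leaf RNA of 12 potted cotton plants, 3 in each of 4 groups, was hybridized to Affymetrix Cotton Genome arrays. The deposited values are MAS5 intensity signals on a linear scale (the submitters' processing notes name the tool), and the trimmed mean of each array is about 500.1. The version of MAS5 is not given in the sources used here. The methods name RMA values for the analysis of expression, and no detection calls come with the values here, so the methods' filter on them was not applied.

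From the 24132 probe sets, 103 controls and 52 reporter probe sets were left out, and the remaining 23977 were quantile normalized because array medians spanned 2.49 on the log2 scale. A floor of 17.3 was set at the 20th percentile of the signals (median over the arrays), and lower signals were raised to it before taking log2. A probe set entered the tests if 3 or more arrays had it over their own median, which 12854 did. Members that passed only on droughted or only on irrigated arrays were tested in fits with no filter (23977 probe sets), and this was chosen after seeing the data. Each comparison was fitted on its 2 groups alone (6 arrays) with limma 3.58.1 under R 4.3.3, and p-values had the Benjamini-Hochberg adjustment across these 12854. Every adjusted p printed is limma's. The results with Vagad drought plant 3 alone come from a fit of all 4 groups on 10 arrays. Calls needed an adjusted p below 0.05 together with a difference of 2-fold or more. The fit was tested on simulated data. Plots were made in matplotlib 3.10.9 (Python 3.11.15).

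Members were found by keyword in the annotation of the study's lists of up-regulated probe sets. Members, lists, tests and alternatives were chosen with earlier results of these data known. All members are named; values of every plant are given for those called and for those that show a hormone group, and of other hormone genes at most the 3 with the largest fold in each direction of a comparison are named. Where a contrast between accessions had served to list a member, its value is given with no test. The array was designed on other cotton species, and probe sets ending in _s_at, _x_at or _a_at can match several transcripts. Plants were separate, so the spread is between plants. The number of arrays limits the precision. The alternatives were other scalings, filters, spreads and thresholds, the t-test of the methods, replicate number as a block and each array left out in turn. Genome positions and probe sequences, the transcriptome libraries, the study's mass spectrometry assay of gene expression and physiology were not analysed here.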

Additional observations from a re-analysis of the deposited data

Results flagged for a closer look

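TIFY10B (Ghi.9871.1.S1_at) moved in opposite directions under drought: every droughted Vagad plant lay below every irrigated Vagad plant, with a difference of -5.17 over 3 plants each, while every droughted RAHS-14 plant lay above every irrigated RAHS-14 plant, with a difference of 0.20. Set the other way, Vagad minus RAHS-14 was -4.33 under drought and 1.03 irrigated. The gibberellin 20-oxidase GraAffx.15730.1.S1_at also did so, with 3.50 in Vagad and -0.60 in RAHS-14, where Vagad drought plants 1 and 2 were at 9.42 and 8.87 and plant 3 at 4.54. These differences between the accessions were not tested, and the share of the 2 set-apart Vagad arrays in them was not tested either.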

How the results depend on the processing

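For the 7 members called in RAHS-14, 122 recomputed values kept both direction and call, 10 lost the call and 0 changed sign. Of the 122, 17 belong to Ghi.3425 and 19 to GhiAffx.1402, which passed the filter only on droughted or only on irrigated arrays. With all 12 arrays fitted together, 0 members rose and 1 fell in RAHS-14, among 113 probe sets called; in Vagad 0 members rose and 3 fell among 500, between irrigated plants 0 members were higher among 25, and between droughted plants 284 probe sets were called. With no fold threshold, 10 members fell in RAHS-14 among 5151 probe sets, and between irrigated plants 3 members were higher and 1 lower among 1925. On the 10 arrays of all 4 groups, 3 members rose and 5 fell in Vagad among 981 probe sets, and 793 were called between droughted plants. When those 10 arrays were quantile normalized alone, the Vagad counts were 3 and 5 among 1336, and 485 probe sets were called between irrigated and 1114 between droughted plants. Between irrigated plants, 498 were called on the signals as deposited and 525 with arrays aligned at their medians.

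The methods' t-test, at an unadjusted p and a fold of 2, gave 2 members lower in Vagad under drought among 689 probe sets, and 641 probe sets between droughted plants; after Benjamini-Hochberg adjustment the counts over all probe sets were 7 and 2. Leaving out 1 array moved the Vagad drought counts between 0 and 6 members lower and between 0 and 3427 probe sets, the counts between droughted plants between 0 and 2 members lower and between 0 and 3674 probe sets, and the count of members higher in irrigated Vagad between 0 and 1. The auxin-responsive GhiAffx.6062.1.S1_at, at 0.13 in Vagad over 3 drought plants, was -1.52 with arrays aligned at medians, -1.79 with 10 arrays normalized alone, -1.41 on the 10 arrays, and lay between -0.30 and 0.90 with 1 array left out (below 0 without Vagad drought plant 1 or 2). EGY3 (GhiAffx.42453.1.S1_at) lay between -0.20, without plant 1, and 1.74, without plant 2. With no filter on the 10 arrays, 3 members rose and 6 fell in Vagad, an alternative chosen after seeing the data. The causes were not tested.

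Replicate numbers did not pair the plants: residuals correlated above 0.1 in 0 of the 12 same-numbered pairs. With replicate number as a block, 3 members rose and 4 fell in RAHS-14 among 765 probe sets, 1 member was higher in irrigated Vagad among 317, and 0 probe sets were called in both Vagad drought comparisons. Probe sets near the floor have a lower bound on their differences, and 6 members were too low on most arrays to pass the filter.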
